A study of Mus musculus with 40 samples.

Results

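The Schlafen family is described here in the livers of WT mice and of mice lacking Nampt in hepatocytes (HNKO). The 7 members are the genes Slfn1, Slfn2, Slfn3, Slfn4, Slfn5, Slfn8, and Slfn9, out of 55487 genes in the deposited count table. They were chosen by their family name and by earlier differences between HNKO and WT in these same libraries, Slfn4 having the largest difference at day 6 and differing between days. The differences between HNKO and WT of the members are therefore a description: no p-value is given for them, and the number called is printed beside the share or number of all genes called, with nothing read from it. All 7 members passed the filter on low counts, which kept 20297 genes.

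The study followed female C57BL/6JBomTac mice that had eaten a purified control diet (PD) for a period of 3, 6, 12, or 21 days. HNKO mice carry floxed Nampt alleles and a Cre recombinase driven by the Albumin promoter, which is active in hepatocytes, so the other cells of the liver keep an intact Nampt. WT mice were littermates with floxed Nampt and without Cre, and all groups received the same diet. The labels state the same numbers of days as the age, whereas the methods of the study state them as days of feeding in adult mice, and the feeding times are followed. RNA of the whole liver was sequenced after removal of rRNA, 1 library per mouse. At days 3, 6, 12, and 21 there were 5, 4, 5, and 5 libraries of WT and 5, 5, 6, and 5 of HNKO. Libraries 17 and 18 of HNKO at day 21 are labelled as having failed quality control and were left out, which leaves 38 libraries and n = 3 for HNKO at day 21.

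Nampt encodes the enzyme that recycles nicotinamide toward NAD and is the targeted gene. Its CPM (counts scaled to library size) was below the lowest WT library in 5 of 5, 4 of 5, 6 of 6, and 3 of 3 HNKO libraries at days 3, 6, 12, and 21. Its log2 fold change was -0.93 at day 3 and -0.69 at day 21, and the edgeR quasi-likelihood adjusted p was 0.0193, 0.0128, 0.0208, and 0.161 at days 3, 6, 12, and 21. Total counts of the 38 libraries ranged from 16151037 to 64181492. Of the hepatocyte markers, Alb, the plasma albumin gene, averaged 16.57 log2 CPM in WT livers at day 6, as the labelled tissue requires.

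Schlafen genes encode a family of proteins, found in mammals in variable numbers, that restrain cell growth and act in immunity, and several of them bind or cut tRNA. They were first described in developing thymocytes, and many members are induced by type I interferon in immune and other cells. The mouse genes are sorted by protein length into a short group (Slfn1 and Slfn2), an intermediate group (Slfn3 and Slfn4), and a long group that also carries a helicase-like domain (Slfn5, Slfn8, and Slfn9). In the liver, myeloid cells such as macrophages and neutrophils are among the cells known to express them. In bulk RNA, fewer cells of a type and less RNA per cell cannot be told apart.

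The 7 members lie within 263.8 kb of chromosome 11 (GRCm38, positions from GENCODE release M21). On the plus strand are Slfn5 at chr11:82951349-82964840, Slfn2 at chr11:83065112-83070678, Slfn1 at chr11:83116849-83122670, Slfn4 at chr11:83175186-83190216, and Slfn3 at chr11:83191330-83215154. Slfn9 at chr11:82978390-82991830 and Slfn8 at chr11:83002158-83020810 are on the minus strand. The pseudogene Slfn10-ps lies between Slfn8 and Slfn2.

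The sequences before the start of the members are shown because the family lies in 1 cluster and several members differed together at day 6. RefSeq promoters (GRCm38.p6, 250 bases before to 50 after the start) were found for all 7 members, with a second start for Slfn8. The 2 members with the largest differences at day 6 are shown first, each 5' to 3' on the plus strand over the 250 bases before the start, chr11:83174936-83175185 for Slfn4 and chr11:83116570-83116819 for Slfn1.
Slfn4: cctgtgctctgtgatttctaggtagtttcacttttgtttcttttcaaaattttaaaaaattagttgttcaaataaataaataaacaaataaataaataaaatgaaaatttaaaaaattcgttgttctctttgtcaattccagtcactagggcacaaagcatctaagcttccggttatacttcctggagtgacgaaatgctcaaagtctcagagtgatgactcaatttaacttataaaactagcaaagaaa
Slfn1: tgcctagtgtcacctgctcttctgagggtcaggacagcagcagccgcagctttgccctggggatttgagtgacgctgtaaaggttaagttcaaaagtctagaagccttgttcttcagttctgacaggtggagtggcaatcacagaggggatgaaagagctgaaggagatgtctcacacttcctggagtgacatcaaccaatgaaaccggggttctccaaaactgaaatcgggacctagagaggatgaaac

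Each promoter was searched on both strands for the core of the interferon-stimulated response element (ISRE), spelled GAAANNGAAA, and for the gamma-activated site (GAS) that STAT proteins bind, spelled TTCNNNGAA. The ISRE core was found in 1131 of 32851 promoters of the same length (3.44%) and the GAS in 2726 of them (8.3%). Of the 8 promoters of the members, 4 promoters of 3 genes held the ISRE core, at 3 distinct sites since the Slfn8 windows overlap, and 0 held the GAS. The 3 genes are those of the long group, shown with the match in capitals, in the gene's own direction, at chr11:82951927-82951976 (plus strand) for Slfn5, chr11:83020829-83020878 (minus strand) for Slfn8, and chr11:82991846-82991895 (minus strand) for Slfn9.
Slfn5: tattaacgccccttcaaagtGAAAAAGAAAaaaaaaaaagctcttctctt
Slfn8: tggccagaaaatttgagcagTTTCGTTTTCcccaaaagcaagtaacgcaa
Slfn9: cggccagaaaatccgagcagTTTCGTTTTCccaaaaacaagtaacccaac

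The match began 155 bases before the start in Slfn5, 48 bases in Slfn8 (136 from its second start, the same site), and 45 bases in Slfn9, and read as the reverse strand of the motif in Slfn8 and Slfn9. The Slfn5 match lies within the gene as GENCODE release M21 draws it, outside the exons listed there. The windows of Slfn1, Slfn2, Slfn3, and Slfn4 held neither spelling, which says only that these letters are not in these windows.

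Levels were compared between members per kb of merged exons, as CPM per kb over the 19 WT libraries. Slfn5, a long member known as an interferon-induced regulator of transcription, was highest at 5.08 ± 0.877 CPM per kb (SD, n = 19). Slfn2, a short member needed for quiescence and survival of T cells and monocytes, followed at 3.48 ± 0.879 CPM per kb. Slfn8 and Slfn9 had 1.71 ± 0.281 and 1.52 ± 0.246 CPM per kb, and their ranges overlapped almost wholly.

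Slfn1, the founding short member, had 0.556 ± 0.201 CPM per kb. Slfn4, an intermediate member found mainly in myeloid cells, had 0.156 ± 0.0499 CPM per kb, and Slfn3, known from differentiating gut epithelium and T cells, had 0.123 ± 0.0479 CPM per kb. In this order the WT ranges of neighbours overlapped in all cases except Slfn2, lowest at 2.13, and Slfn8, highest at 2.07. In HNKO livers at day 6, Slfn4 reached 2.34 ± 1.33 CPM per kb (SD, n = 5), beside 2.01 for Slfn1, 2.58 for Slfn8, and 2.16 for Slfn9 in the same livers.

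The counts behind these values were low for some members, with a median over the 38 libraries of 14 for Slfn3, 24.5 for Slfn4, and 28.5 for Slfn1, against 832 for Slfn5. Stretches of 51 bases, the read length, that also occur in other GENCODE genes made up 15.4% of Slfn3, 14.1% of Slfn8, 11.5% of Slfn9, 10.9% of Slfn4, 10.9% of Slfn5, 4.2% of Slfn2, and 0.6% of Slfn1. For Slfn4 these were mostly shared with its neighbour Slfn3 (6% of its stretches) and the pseudogene Gm11427 (3.9%), and for Slfn8 with Slfn10-ps and Slfn9. For Slfn5 they were mostly the antisense gene Slfn5os (7.4%), which had a median count of 0. The split of reads between near-identical members is uncertain to that extent. The libraries were made with a stranded kit, but the use of strand in counting is not given in the sources used here.

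Slfn4 was low in every WT liver and higher than all of them in HNKO livers at day 6. The 4 WT libraries of day 6 had 0.434, 0.565, 0.585, and 0.674 CPM. The 5 HNKO libraries had 4.87, 4.57, 14.1, 15.7, and 7.12 CPM. The lowest HNKO library was several times above the highest WT library, and libraries 29 and 30 stood above the other HNKO libraries. The log2 fold change was 4.03 (SE 0.463, n = 5 and 4), or 16.3-fold, and it was between 3.78 and 4.20 when any 1 library was left out.

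At day 3 the WT libraries had 0.487, 0.637, 0.714, 0.705, and 0.881 CPM of Slfn4 and the HNKO libraries 0.982, 1.59, 0.778, 0.972, and 2.04 CPM. The groups overlapped, with 4 of 5 HNKO libraries above the highest WT library. The log2 fold change was 0.89 (SE 0.413). At day 12 the WT libraries had 0.441, 0.600, 0.622, 0.488, and 0.639 CPM, and the 6 HNKO libraries had 0.718 CPM at the lowest, 1.17 at the median, and 3.63 at the highest. All HNKO libraries were above all WT libraries, and the highest was library 11. The log2 fold change of 1.47 (SE 0.397) was between 1 and 1.61 with 1 library left out, the lowest without library 11.

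At day 21 the WT libraries spread more widely, with 0.394, 1.01, 0.654, 1.02, and 0.236 CPM of Slfn4. The 3 HNKO libraries had 2.46, 1.19, and 1.45 CPM, again above every WT library, with a log2 fold change of 1.37 (SE 0.446). The label numbers run through the days in a first series (1 to 21) and a second series (22 to 41). Within a series, Slfn4 was higher in HNKO in 7 of 7 comparisons of day and series, by 0.62 to 4.07 log2 CPM, and the first series has no HNKO library in use at day 21. Slfn1, Slfn2, and Slfn8 were also higher in 7 of 7, Slfn3 and Slfn9 in 6 of 7 (lowest -0.08 and -0.14 log2 CPM), and Slfn5 in 4 of 7 (from -0.11 to 0.49).

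**Figure D1:**
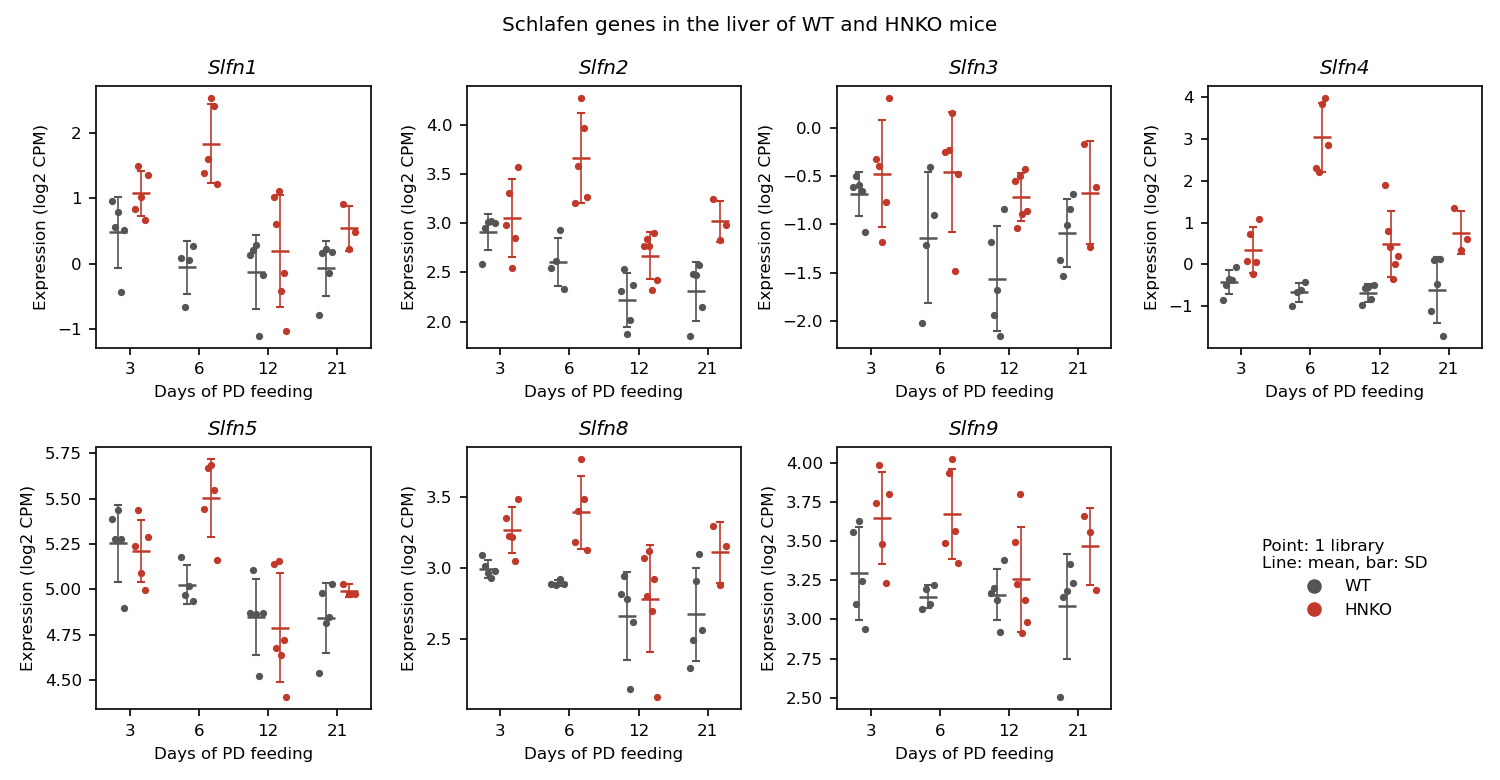
Expression (log2 CPM) of the 7 Schlafen genes against days of PD feeding, 1 point per library, with the mean and SD of WT (grey) and HNKO (red). For Slfn4, the 5 HNKO libraries of day 6 lie apart from the 4 WT libraries, with means of 3.03 and -0.67 log2 CPM.

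Slfn1, a growth inhibitor in T cells, had the second largest difference at day 6. The WT libraries had 0.998, 0.565, 0.975, and 1.14 CPM and the HNKO libraries 2.55, 2.97, 5.71, 5.24, and 2.25 CPM, so that the groups did not overlap and libraries 29 and 30 were again highest. The log2 fold change of Slfn1 was 2.01 (SE 0.386), against 0.58, 0.48, and 0.62 on days 3, 12, and 21. The value of day 12 was between 0.26 (without library 13) and 0.66 with 1 library left out.

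Slfn2 had the third largest difference at day 6. Its WT libraries had 5.77, 6.06, 7.55, and 4.97 CPM and its HNKO libraries 9.14, 11.9, 19.3, 15.5, and 9.57 CPM. The groups did not overlap, and library 29 was highest. The log2 fold change of Slfn2 was 1.11 (SE 0.206), against 0.18, 0.45, and 0.71 on days 3, 12, and 21, and the value of day 3 became 0.03 without library 23. On day 21 the 3 HNKO libraries (9.41, 7.06, and 7.82 CPM) again lay above all WT libraries (3.55 to 5.87 CPM).

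Slfn3 ranged from 0.174 to 0.682 CPM in the WT libraries and from 0.285 to 1.05 CPM in the HNKO libraries of day 6, and the groups overlapped. Its log2 fold change was 0.79 (SE 0.362) at day 6 and 0.92 (SE 0.335) at day 12. At day 6 it was between 0.53 and 1.12 with 1 library left out, and the difference of mean log2 CPM was 1.39 within the first label series and 0.05 within the second. At day 12 it was between 0.75 and 1.21, the highest without WT library 34. Its counts were low, with 4 to 28 in the WT libraries.

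The long members differed less. Slfn5 had 32.6 ± 2.5 CPM in WT (SD, n = 4) and 45.7 ± 6.43 CPM in HNKO (SD, n = 5) at day 6, with 4 of 5 HNKO libraries above the highest WT library and a log2 fold change of 0.49 (SE 0.136). Slfn8 had 7.36 ± 0.0969 CPM and 10.5 ± 1.94 CPM, and the log2 fold change was 0.52 (SE 0.17). Slfn9 had 8.79 ± 0.456 CPM and 12.9 ± 2.64 CPM, and the log2 fold change was 0.56 (SE 0.183). The HNKO and WT libraries of Slfn8 and Slfn9 did not overlap at day 6, although the log2 fold change was only 0.14 and 0.13 at day 12. With 1 library left out these ranged from 0.03 (without library 33) to 0.25 for Slfn8 and from -0.003 (without library 13) to 0.19 for Slfn9. Slfn5 had -0.05 at day 3, where it ranged from -0.13 (without library 26) to -0.003 (without library 24). At day 12 Slfn5 had -0.04 and ranged from -0.12 to 0.03 (without library 15).

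**Figure D2:**
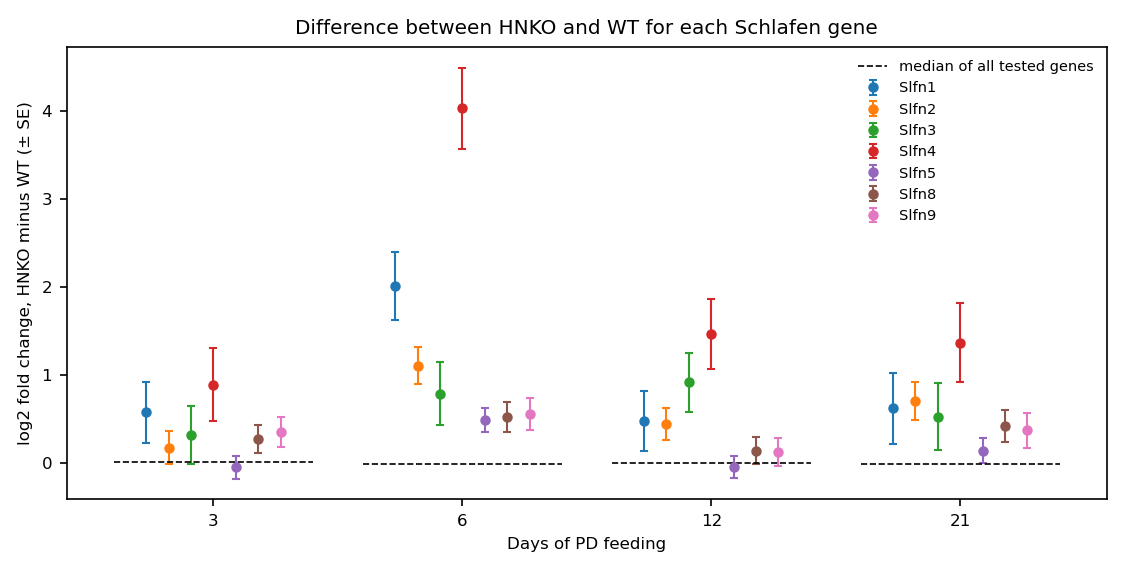
Log2 fold change (HNKO minus WT, ± SE) of each Schlafen gene at days 3, 6, 12, and 21 of PD feeding, with the median of all tested genes as a dashed line. At day 6 all 7 members lie above the line, from 0.49 for Slfn5 to 4.03 for Slfn4.

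A gene was called where edgeR's quasi-likelihood test gave an adjusted p under 0.05 over all tested genes. At day 6, 6 of 7 members were called higher in HNKO, all but Slfn3, beside 8.42% of all tested genes called higher and 4.37% called lower. At day 3, 0 of 7 were called, beside 2.95% higher and 1.71% lower. At day 12, 1 of 7 (Slfn4) was called, beside 4.56% higher and 3.27% lower (1588 genes in all). Without library 11, 0 of 7 were called at day 12 beside 1105 genes in all, and without library 34, 2 (Slfn3 and Slfn4) beside 1167 genes. At day 21, 0 of 7 were called, beside 2.21% higher and 0.916% lower.

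Every HNKO library lay above every WT library for 0, 5, 1, and 3 of 7 members at days 3, 6, 12, and 21, beside 2.31%, 8.08%, 2.65%, and 7.25% of all tested genes. The median log2 fold change of the members was 0.31, 0.79, 0.45, and 0.53 at these days, and that of all tested genes was 0.01, -0.01, 0.00, and -0.01. Since the same contrast chose the members, these counts repeat the choice and support nothing. At day 6, where 2596 genes were called in all, 3 members (Slfn1, Slfn2, and Slfn4) were called without library 29, beside 1126 genes. With the failed libraries included, Slfn1 and Slfn4 were called, beside 1321 genes. Library 17 had 0 counts of Slfn1, Slfn2, Slfn3, Slfn4, and Slfn8, but 271 of Slfn5 and 188 of Slfn9.

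Differences between days within WT are another contrast than the one that chose the members, although the same WT libraries entered both. Feeding time, age, and day of collection cannot be told apart in it. The edgeR quasi-likelihood test found an adjusted p under 0.05 for 0 of 7 members, beside 5.84% of all tested genes (1185 genes). Slfn2 (adjusted p = 0.0624 by edgeR) and Slfn5 (adjusted p = 0.081) were the 2 of 7 members with an unadjusted p under 0.05, which 21.2% of all tested genes had. Both passed with DESeq2, at adjusted p-values of 0.0221 for Slfn2 and 0.0408 for Slfn5. With the label series as a covariate, the edgeR adjusted p of Slfn5 was 0.0267.

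In WT, Slfn2 averaged 7.51 ± 0.894, 6.09 ± 1.08, 4.66 ± 0.873, and 4.96 ± 0.975 CPM on days 3, 6, 12, and 21 (SD, n = 5, 4, 5, and 5). Slfn5 averaged 38.4, 32.6, 28.9, and 28.8 CPM at the same days. Slfn4 had an edgeR adjusted p of 0.942 for the day effect in WT, with means of 0.685, 0.564, 0.558, and 0.663 CPM. Between day 6 and day 3 no member passed in WT (adjusted p by edgeR from 0.952 to 0.999), and the difference of Slfn4 was -0.27 on the log2 scale (SE 0.478). Between day 21 and day 3, Slfn5 had a difference of -0.42 (SE 0.127, adjusted p = 0.0498 by edgeR) and Slfn2 of -0.59 (SE 0.192, adjusted p = 0.0644).

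Members were also compared within groups, where the mean of each genotype and day was removed from the log2 CPM of each library. These correlations over 38 libraries did not use the differences between HNKO and WT, but each library's cell content, depth, and scaling are shared by the genes of a pair. Pearson's r was above 0 in 21 of 21 pairs, from 0.09 to 0.81, and 15 pairs had an adjusted p under 0.05 by permutation within groups, for Pearson's r as for Spearman's rho. With the means of the label series removed as well, 13 pairs passed. A pair that passed need not stand out among all genes: ranked by r with Slfn4 among 20296 other genes, Slfn2 was at rank 35, Slfn1 at 357, and Slfn8 at 583, whereas Slfn5 was at rank 1 for Slfn9.

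Slfn5 and Slfn9 had the highest r of 0.81 (rho = 0.77, permutation p = 1e-05, the smallest that 100000 permutations can give, adjusted p = 0.000105). Leaving out the 2 libraries farthest from the median of Slfn5 left r at 0.79. Slfn1 and Slfn8 had r = 0.75 (rho = 0.68, adjusted permutation p = 0.000105), and 0.64 without the 2 farthest libraries. Slfn4 had its highest r with Slfn2, at 0.66 (rho = 0.7, permutation p = 0.00016, adjusted p = 0.00056), and 0.62 without the 2 farthest libraries.

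Slfn4 had r = 0.51 with Slfn1 (adjusted permutation p = 0.00979) and 0.46 with Slfn8 (adjusted permutation p = 0.0377). With the means of the label series also removed, these 2 pairs no longer passed, at r = 0.39 and 0.46, while Slfn4 with Slfn2 had r = 0.61 and passed. Its pairs with Slfn5 (r = 0.28, adjusted permutation p = 0.182) and with its nearest neighbour Slfn3 (r = 0.09, adjusted permutation p = 0.637) did not pass. With all 40 libraries, the r of Slfn9 with Slfn2 was -0.09 and that with Slfn8 was -0.09.

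**Figure D3:**
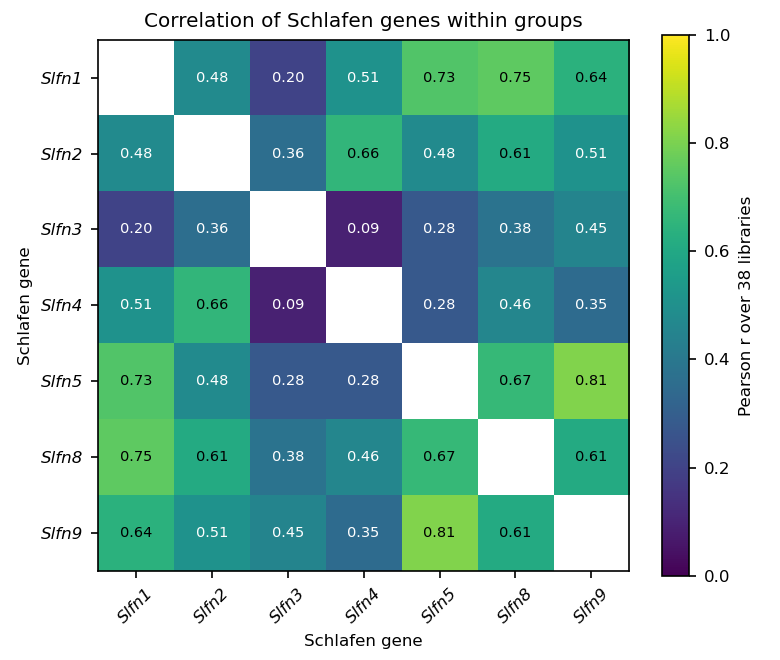
Pearson's r between each pair of Schlafen genes over 38 libraries after removal of group means, as color and number. Slfn5 and Slfn9 have the highest value (0.81) and Slfn3 and Slfn4 the lowest (0.09).

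Over the same 38 libraries, the 10 genes whose within-group pattern was most like that of Slfn4 were found by Pearson's r. The first was Plek, a platelet and leukocyte protein kinase C substrate, with r = 0.79. Then came Gm37347 (0.77), Nos2, the inducible nitric oxide synthase (0.77), S100a9, a neutrophil and monocyte calcium-binding protein (0.75), and Slc2a3, a glucose transporter (0.74). Ier3 (0.74), Lilr4b (0.72), Ncf4, a subunit of the phagocyte NADPH oxidase (0.72), Stx11 (0.72), and Lrrc25 (0.72) completed the 10. Of the 10, Gm37347 and Nos2 were near the floor, at -2.93 and -1.13 log2 CPM on average.

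For the other members the 3 most similar genes were Lair1, Msn, and Arhgap25 for Slfn1 (r = 0.84, 0.79, and 0.78) and Il10ra, Prkcd, and Iqgap1 for Slfn2 (r = 0.86, 0.85, and 0.83). For Slfn5 they were Fcgr1, an Fc receptor of macrophages, and the complement genes C1qb and C1qa (r = 0.86, 0.83, and 0.82). For Slfn8 they were Oasl2, an interferon-induced gene, Slc8a1, and Fam129a (r = 0.78, 0.76, and 0.75). For Slfn9 they were Slfn5, Rbl1, and Fcgr1 (r = 0.81, 0.79, and 0.79), and for Slfn3 Gm24041, Scimp, and Oas2, an interferon-induced gene (r = 0.7, 0.69, and 0.68). Gm24041 was near the floor, at -1.73 log2 CPM on average.

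Genes of the pathways known to induce Schlafen genes were compared between HNKO and WT at day 6 with edgeR's quasi-likelihood test. Of 30 type I interferon-stimulated genes, 7 were called higher and 0 lower, with a median log2 fold change of 0.09. Those with the smallest p were Oas3 (0.94, SE 0.218, adjusted p = 0.00389 by edgeR), Zbp1, a sensor of nucleic acids (1.01, SE 0.251, adjusted p = 0.00667), and Ifi27l2a (0.98, SE 0.26, adjusted p = 0.0109). The 7 became 2 without library 29 and 2 without library 8. At day 12, 0 of 30 were called higher and 2 lower, Ifit1 (-0.74) and Ifit3b (-0.66), both of the family that binds viral RNA. The number higher on day 12 became 1 without library 12, 23, or 34. At day 21, 1 was called higher and 0 lower, Ifi27l2a (1.07, adjusted p = 0.0244 by edgeR), and the 1 became 0 without library 19, 21, 37, or 41.

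Of 19 tested interferon gamma-induced genes, 4 were called higher at day 6, among them Irf8, a myeloid transcription factor (0.75, adjusted p = 0.00104 by edgeR), Ciita, the regulator of MHC class II (1.43, adjusted p = 0.00129), and Gbp2 (0.80, adjusted p = 0.00382). At day 12, Ciita (0.85) and Irf8 (0.48) were called higher and Gbp3 (-0.80) and Gbp7 (-0.45) lower, and at day 21 Irf8 (0.65) was called higher. Of 11 tested interferons, receptors, and kinases, 4 were called higher at day 6, Ifngr1 (0.57), Ifngr2 (0.43), Il10rb (0.50), and Jak2 (0.29). On days 3, 12, and 21, 1, 2, and 0 were called higher. Ifnlr1, with at most 47 counts in a library, was called on days 3 (1.68) and 12 (1.52), at an adjusted p of 0.0328 by edgeR on both. The other of day 12 was Ifngr1 (0.40, adjusted p = 0.0469 by edgeR). Of the ligands, Ifnk, a type I interferon known from skin, was the 1 that passed the filter, with up to 85 counts in a library and a log2 fold change of -0.12 at day 6 (SE 0.437, adjusted p = 0.898 by edgeR). Ifnb1 and Ifnl3 had at most 2 counts in a library, Ifng had at most 3, and Ifna1, Ifna2, Ifna4, and Ifnl2 had 0 counts in all 38 libraries.

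Of 22 STAT3 and acute phase genes, 16 were called higher at day 6, with a median log2 fold change of 1.2. They include Saa2 (6.03, SE 0.687, adjusted p = 2.2e-06 by edgeR) and Saa1 (5.66, SE 0.673, adjusted p = 2.93e-06), acute phase proteins of hepatocytes, and Il1r1, an interleukin receptor (1.29, SE 0.166, adjusted p = 8.67e-06). The numbers called were 3, 10, and 2 on days 3, 12, and 21. The 2 of day 21 became 0 without library 37 and 1 without each of libraries 19, 20, 21, 38, 39, and 41.

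Markers of recruited myeloid cells were higher in HNKO at day 6 and, in smaller numbers, at the other days. Of 15 neutrophil markers, 9 passed the filter on low counts and 8 were called higher at day 6 by edgeR. Some, such as Mmp8 with 215 counts and Retnlg with 206 over all 38 libraries, were so low elsewhere that the filter kept them with the help of the livers where they were high, and 1 was called when 10 counts were required in every library. Prtn3, a granule protease, had 6.14 (SE 0.799). It averaged -2.75 log2 CPM in WT at day 6, with 0 counts in 4 of 38 libraries. The filter likewise kept it with the help of the livers where it was high, so no p is given for it. Csf3r, the G-CSF receptor, had 2.10 (SE 0.326, adjusted p = 9.47e-05 by edgeR), and S100a9 had 3.49 (SE 0.557, adjusted p = 0.000134). The summed CPM of the 15 listed genes ranged from 5.01 to 7.51 in WT and from 24.6 to 75 in HNKO at day 6. Among the defining markers, Ly6g had 0 counts in 28 of 38 libraries and at most 3, and Mpo had 0 in 26. Elane had 0 counts in 14 libraries and at most 6. On days 3, 12, and 21, 1, 4, and 2 of the 9 were called higher. The 4 of day 12 became 2 without library 11, and the 2 of day 21 became 0 without library 37 and 1 without each of libraries 19, 20, 21, 39, and 41.

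Of 14 recruited monocyte and macrophage markers, 13 were called higher at day 6, and 8 when 10 counts were required in every library. Those with the smallest p were Chil3 (4.79, SE 0.733), Plac8 (1.18, SE 0.191, adjusted p = 0.000156 by edgeR), and Ccr2, the receptor that draws monocytes from blood (3.18, SE 0.516, adjusted p = 0.000156). Chil3 averaged -2.34 log2 CPM in WT at day 6. The filter kept it with the help of the livers where it was high, so no p is given for it. The summed CPM of the 14 genes at day 6 ranged from 229 to 299 in WT and from 387 to 826 in HNKO. On days 3, 12, and 21, 5, 9, and 7 of the 14 were called higher, with medians of 0.64, 0.95, and 1.12. The 5 of day 3 became 3 without library 2 or 23. The 9 of day 12 became 5 without library 12, 14, or 16 and 4 without library 13 or 33. The 7 of day 21 became 0 without library 37 and 4 without library 19, 20, or 41. Library 29 was highest in both summed lists at day 6, with 75 and 826 CPM, and libraries 29 and 30 were the 2 highest in Slfn4. The part of these cells in the Schlafen differences was not tested.

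**Figure D4:**
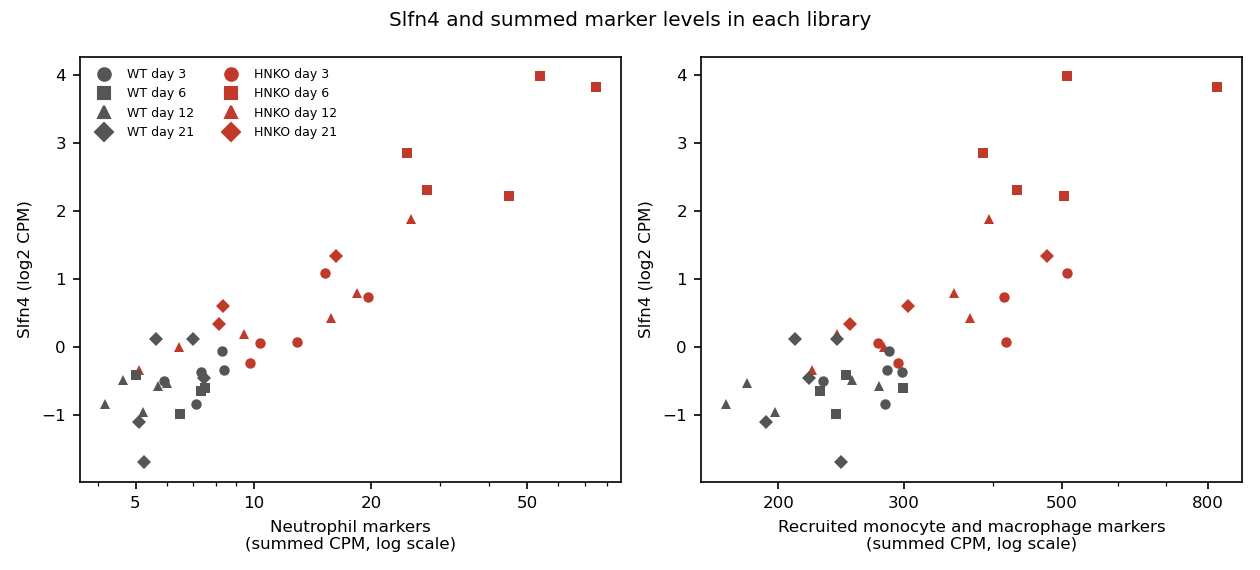
Slfn4 (log2 CPM) against the summed CPM of neutrophil markers (left) and of recruited monocyte and macrophage markers (right), both on a log scale, 1 point per library, with symbols for the day and colors for the genotype. The 5 HNKO libraries of day 6 have the highest Slfn4 and 24.6 to 75 summed CPM of neutrophil markers, against 5.01 to 7.51 in WT at day 6.

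Of 14 genes listed as markers of Kupffer cells, the resident macrophages of the liver, 3 were called higher at day 6 by edgeR. They were Cd68 (0.88, adjusted p = 0.024), Csf1r (0.45, adjusted p = 0.0314), and C1qc (0.51, adjusted p = 0.0403). The lowest of the 14 were Cd163 (-0.07), Clec1b (-0.03), Folr2 (0.14), Timd4 (0.14), and Clec4f (0.21), and the highest was Marco (1.53), all not called. The median of the 14 was 0.45, and 8 of them had an unadjusted edgeR p under 0.05. The 3 became 0 without library 28 (WT) and 0 without library 29 (HNKO). At day 3, 0 were called higher and 1 lower, Cd163 (-0.85, adjusted p = 0.0194 by edgeR). At day 12, 1 was called higher, C1qc (0.63, adjusted p = 0.0119 by edgeR), and 1 lower, Cd163 (-0.80, adjusted p = 0.0151). The 1 higher at day 12 became 1 to 7 with 1 library left out, and 0 were called at day 21. No T and NK cell marker (0 of 14, with 2 at an unadjusted edgeR p under 0.05) was called at day 6. Neither was a B cell marker (0 of 8, and 0 at an unadjusted edgeR p under 0.05). The T and NK cell markers had a median of 0.39 at day 6 (0.01 to 0.94) and the B cell markers 0.12. The summed CPM of the T and NK cell markers was low, 8.34 to 12.8 in WT and 10.1 to 16.9 in HNKO at day 6. At day 3 all 8 B cell markers had a negative log2 fold change, with a median of -0.85. Of these, 6 had an unadjusted edgeR p under 0.05 and 1 was called, Ms4a1 (-1.68, adjusted p = 0.0252 by edgeR). Their summed CPM at day 3 had a median of 19.6 in WT (18.6 to 206) and 20.9 in HNKO (19.4 to 22.9). The WT median was thus not above the HNKO median, while the highest WT library was far above both. At day 6 those with the smallest p were Il7r (0.94), Cd5 (0.93), and Cd8a (0.79) of T and NK cells and Ighm (1.08), Cd22 (0.37), and Cd79a (0.52) of B cells, with edgeR adjusted p-values from 0.0636 to 0.461. Kdr was the 1 of 8 endothelial markers called, at -0.37 (adjusted p = 0.00934 by edgeR), followed by Lyve1 (0.53, adjusted p = 0.116) and Tek (-0.19, adjusted p = 0.178). Of 12 hepatocyte markers 1 was called higher at day 6, Ambp at 0.44, and 2 were called lower, Alb at -0.67 and Ttr at -0.64. The 12 had a median of -0.35, from -0.81 to 0.44. Their summed CPM at day 6 had a median of 146000 in WT and 103000 in HNKO.

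Genes near the cluster were compared in the same way, to see whether differences extended beyond the family. Of 28 tested genes within 500 kb, 5 were called higher and 0 lower at day 6, beside 8.42% and 4.37% of all tested genes. They were the pseudogene Slfn10-ps (2.17, SE 0.642), AI662270 (0.97, adjusted p = 0.00755 by edgeR), the chemokines Ccl6 (1.47, adjusted p = 6.31e-05) and Ccl4 (2.04, adjusted p = 0.00756), and Wfdc17 (0.79, adjusted p = 0.0145). Slfn10-ps is itself a Schlafen locus, so it does not lie beyond the family. It had 274 counts over all 38 libraries and averaged -2.58 log2 CPM in WT at day 6, so no p is given for it. Stretches also found in Slfn10-ps made up 9.8% of Slfn8 and 7.8% of Slfn9. Gm11427, the pseudogene that shares stretches with Slfn3 and Slfn4, had 0.30 (adjusted p = 0.579). The median of the 28 genes was 0.30 at day 6, and without library 29 the 5 became 2.

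At day 12, 3 neighbours were called higher, Ccl6 (0.78), Wfdc17 (0.72), and Gm11427 (0.86), beside 4.56% of all tested genes. At the same day 2 were called lower, among them Taf15 (-0.30), beside 3.27%. At day 21, 2 neighbours were called higher, Ccl6 (0.94) and Wfdc18 (2.36), beside 2.21% of all tested genes. At the same day 2 were called lower, among them Taf15 (-0.38), beside 0.916%. Fewer neighbours were called on day 12 without library 11, 16, or 33. On day 21, 0 were called without library 37, and fewer were called without library 19, 21, 40, or 41. At day 3, 0 of 28 were called by edgeR and 1 by DESeq2, and 4 had an unadjusted edgeR p under 0.05. Of the other Schlafen loci in the table, Slfn14 had at most 10 counts in a library and Slfnl1 at most 10, and both fell below the filter.

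**Figure D5:**
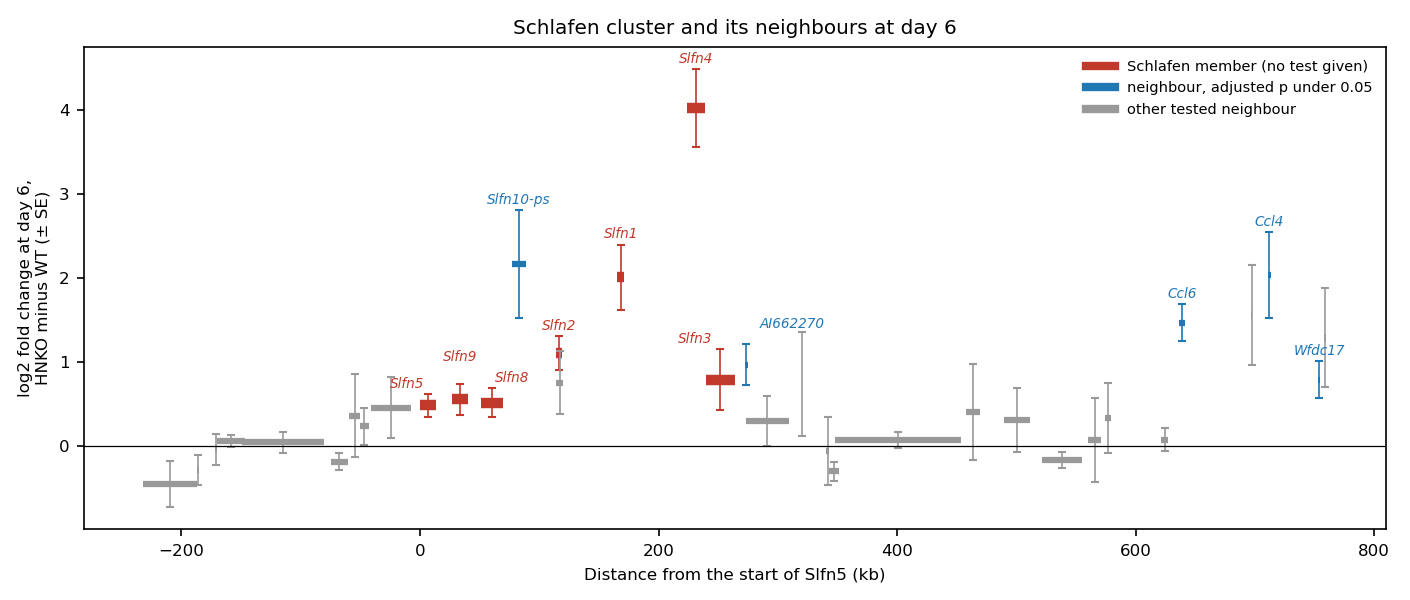
Log2 fold change at day 6 (HNKO minus WT, ± SE) of the Schlafen genes (red) and the 28 tested neighbours (blue where called, grey otherwise) against distance from the start of Slfn5 in kb, with bar length giving the gene's extent. Slfn4 is highest at 4.03, and Slfn10-ps within the cluster has 2.17.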

How the data were processed

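Whole-liver RNA was sequenced as 51-base pairs, and the authors deposited counts per gene, which are not normalized. The submitters' processing notes name STAR 2.7.2b, featureCounts 1.6.4, edgeR 3.26.0, and GRCm38; the use of strand in counting is not given in the sources used here. Each library was taken as 1 mouse. The chi-square per gene between libraries of a group was at least 12.8 over 74 pairs, and 0 pairs were identical. Groups came from the labels.

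Counts were analyzed with edgeR 4.0.16 in R 4.3.3. Genes were filtered at a minimum count of 10, a total of 15, and a proportion of 0.7 (filterByExpr), which kept 20297 genes and 99.937% of counts, and scaled by TMM. One quasi-likelihood model with a mean per genotype and day was fitted to 38 libraries, and p-values were adjusted by Benjamini-Hochberg over all tested genes. Log2 CPM used a prior count of 2. Correlations used 100000 permutations within groups, adjusted over 21 pairs. The fitting was tested on simulated counts. Alternatives were DESeq2 1.42.0, other scaling, filters, libraries, and a covariate for label series.

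The members and the gene lists were chosen with earlier results of these data known. Genes named are all members, Nampt, the 10 genes most like Slfn4 and 3 for each other member, the 3 with the smallest p at day 6 in each list, genes at or near 0, and neighbours within 500 kb that passed at any day. A neighbour that this rule names is not reported here. Ifnk, Jak2, Ifnlr1, Ifit1, Ifit3b, Gbp3, Gbp7, Mmp8, Retnlg, and Ms4a1 were named after their values were seen. So were Cd163, Clec1b, Folr2, Timd4, Clec4f, and Marco.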

Additional observations from a re-analysis of the deposited data

Results flagged for a closer look

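Of 49 sets of a member and a group with 4 to 10 libraries, 3 had a lowest library set apart from the rest by Dixon's ratio, and chance gives about 1 in 20. Slfn2 in WT at day 3 was 2.587 log2 CPM in library 1, with the next library at 2.947 and the highest at 3.025. Slfn3 in WT at day 3 was -1.082 log2 CPM in library 26, with the next library at -0.654. Slfn9 in WT at day 21 was 2.503 log2 CPM in library 19, with the next library at 3.143 and the highest at 3.355.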

How the results depend on the processing

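The log2 fold change of Slfn4 kept its direction under every alternative run. With 1 library left out it ranged from 0.66 to 1.02 at day 3, 3.78 to 4.20 at day 6, 1 to 1.61 at day 12, and 1.02 to 1.58 at day 21.

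Members called higher at day 6 numbered 6, and 2 with all 40 libraries and 3 to 6 with 1 left out. At day 12 the 1 called became 0 with at least 10 counts in every library (which removes Slfn4 from the test), 0 with all 40 libraries, 0 with only the 2 groups of that day, and 0 to 2 with 1 left out. At day 21 the count of 0 became 1 with DESeq2 and 0 to 1 with 1 left out. For the day effect in WT it became 2 with DESeq2, 1 with the label series as a covariate, 1 with the WT groups alone, and 0 to 1 with 1 left out.

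Genes called at day 3 were 945, and 1426 with DESeq2, 331 with all 40 libraries, 437 with 2 groups, and 322 to 1668 with 1 left out. At day 6 they were 2596, and 1321, 1298, and 1126 to 3027 with all 40, 2 groups, and 1 left out. At day 12 they were 1588, and 624, 819, and 852 to 1773. At day 21 they were 634, and 994 with DESeq2, 1350 with all 40, and 13 to 915 with 1 left out, 13 without library 37. For the day effect in WT they were 1185, and 1856 with DESeq2, 581 with all 40, 2224 with label series, and 811 to 1385 with 1 left out.

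At day 6, type I interferon-stimulated genes called were 7, and 4 with no filter, 2 with all 40, 4 with 2 groups, and 2 to 8 with 1 left out. Neutrophil markers fell from 8 to 1, recruited monocyte and macrophage markers from 13 to 8, and neighbours from 5 to 3 with at least 10 counts in every library, which tests fewer genes. With all 40 libraries, 1 Kupffer cell marker and 3 neighbours were called. With 1 left out, these ranged from 6 to 9, 10 to 13, 2 to 6 (neighbours), and 0 to 4 (Kupffer). The pairs of members passing were 15, and 13 to 18 with 1 left out. With all 40 libraries, r was -0.087 for Slfn2 and Slfn9 and -0.087 for Slfn8 and Slfn9. Where no cause is named, the cause was not tested.

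No paired analysis was possible because each label number belongs to 1 library, so the groups share no numbers. The median counts of Slfn3, Slfn4, and Slfn1 were the lowest of the members, at 14, 24.5, and 28.5.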
